A study of Rattus norvegicus with 6 samples.

Results

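Grem1, Inha and Rgma, 3 genes that act on BMP and activin signaling, were the members described here out of 1756 genes in the deposited table. They were picked by gene name, with the result of ARVs against DMSO known, and the table itself holds only genes that had passed the comparison of ARVs with DMSO on the same libraries. The change of these 3 genes with treatment is thus a description of what chose them and is given without a test. Neonatal rat ventricular cardiomyocytes (NRVCs) came from Sprague Dawley pups of 2 to 3 days of age and were cultured for 24 h with ARVs, a mixture of the antiretroviral drugs Abacavir, Lamivudine, Ritonavir and Atazanavir at 5 µM, or for 24 h with DMSO, the solvent control. The cells are a primary culture and can hold cells other than myocytes. The labels do not say whether 5 µM was the concentration of each drug or of all drugs together. RNA sequencing gave 3 libraries per treatment, and the sources do not say whether each library came from its own cell preparation, so errors cover the spread between these libraries.

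BMPs, GDFs and activins are secreted dimers of the TGF-beta superfamily. They bind type I and type II receptor kinases, which phosphorylate SMAD proteins, and the SMADs then switch on target genes such as the Id genes. Secreted antagonists hold the ligands away from their receptors, and co-receptors on the cell surface bring ligand and receptor together. In the heart, BMP signals are needed for the formation of myocardium and valves, and activins are released by injured or failing muscle. Grem1 encodes gremlin 1, a secreted cystine knot protein that binds BMP2, BMP4 and BMP7. Inha encodes the inhibin alpha subunit, which pairs with a beta subunit to make inhibin, an antagonist of activin. Rgma encodes repulsive guidance molecule A, a lipid-anchored co-receptor that binds BMP2 and BMP4 and is also a ligand of neogenin, the product of Neo1.

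All 3 genes were lower with ARVs, and they were lower in every treated library than in any control library, as were 48.6% of all genes in the table. Grem1 was the most reduced, to 31.8% of its DMSO level, and Inha and Rgma stood at 49.1% and 48.8% of theirs. In the annotation used for the table, release 97 of the rat genome, Grem1 (ENSRNOG00000026053) lies on the minus strand of chromosome 3 from 105203309 to 105214989, Inha (ENSRNOG00000020097) on the plus strand of chromosome 9 from 82700468 to 82703400, and Rgma (ENSRNOG00000012874) on the plus strand of chromosome 1 from 134699299 to 134742514. All 3 are annotated as protein coding, and each count is for a whole gene. In the RefSeq annotation of assembly GRCr8, 0 genes overlapped any of the 3. The sources used here do not say whether counting used strand.

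The promoters of the 3 genes are shown as a description. The genes were picked with their fall known, and 50.4% of all genes tested were lower at an adjusted p under 0.05 from edgeR. No shared regulation is read from the sequences. The 250 bases before the annotated start of each gene were taken from RefSeq for GRCr8, at chr3:120978320-120978569 on the minus strand for Grem1, chr9:84442859-84443108 on the plus strand for Inha and chr1:136538532-136538781 on the plus strand for Rgma. Each runs 5′ to 3′ towards the start, and capitals mark every match, on either strand, to the 10 motifs that were searched:
Grem1: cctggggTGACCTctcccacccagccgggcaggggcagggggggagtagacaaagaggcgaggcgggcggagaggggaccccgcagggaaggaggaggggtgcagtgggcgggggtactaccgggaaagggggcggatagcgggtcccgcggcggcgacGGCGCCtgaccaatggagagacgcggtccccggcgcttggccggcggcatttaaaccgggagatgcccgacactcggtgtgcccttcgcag
Inha: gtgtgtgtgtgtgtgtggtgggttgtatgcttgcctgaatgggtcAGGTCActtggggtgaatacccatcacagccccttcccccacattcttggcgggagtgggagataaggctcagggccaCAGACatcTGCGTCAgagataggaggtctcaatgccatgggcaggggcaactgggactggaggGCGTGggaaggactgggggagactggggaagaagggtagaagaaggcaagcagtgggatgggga
Rgma: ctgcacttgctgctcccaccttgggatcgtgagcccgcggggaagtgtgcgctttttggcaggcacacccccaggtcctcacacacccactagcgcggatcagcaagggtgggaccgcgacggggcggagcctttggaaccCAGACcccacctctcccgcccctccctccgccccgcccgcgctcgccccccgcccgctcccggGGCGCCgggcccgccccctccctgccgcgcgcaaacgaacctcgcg

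The promoters of Grem1 and Rgma were richer in G and C than that of Inha. GC content was 72% in Grem1 and 74% in Rgma, above that of 94% and 95.8% of 33469 rat promoters of this length, and 58.4% in Inha, above that of 71.1%. The sequences held 25 CG dinucleotides in Grem1, 28 in Rgma and 3 in Inha, where the median promoter held 5. Motifs bound by SMAD proteins were searched as CAGAC and, in its form rich in G and C, as GGCGCC. The cAMP response element was searched as TGACGTCA. Its variant, the form known from the rat Inha promoter, was searched as TGCGTCA. Elements of stress and growth responses were the AP-1 motif, searched as TGACTCA, and the antioxidant response motif, searched as TGACNNNGC. The response cores for xenobiotics and for hypoxia were searched as GCGTG and, for hypoxia, as ACGTG. A site of nuclear receptors was searched as AGGTCA, and the TATA motif of core promoters was searched as TATAAA. The motif GGCGCC was found in Grem1, 91 to 86 bases before the start, and in Rgma, 46 to 41 bases before the start. It occurred in 8.69% of all promoters and in 17.7% of the 1432 promoters matched by symbol to genes tested. This motif holds only G and C. The median GC content of all promoters was 51.2%, and the shares were not matched to the GC content of Grem1 or Rgma. CAGAC was found in Inha, 127 to 123 bases before the start, and in Rgma, 109 to 105 bases before the start, and it occurred in 42.9% of all promoters. The variant cAMP response element was found in Inha alone of the 3, 119 to 113 bases before the start, in 1.66% of all promoters and in 3.56% of those of genes tested. AGGTCA was found in Inha and, on the other strand, in Grem1, and in 14.1% of all promoters, and GCGTG in Inha, in 25.9% of all promoters and in 43.8% of those of genes tested. No marked match overlapped another. The cAMP response element, AP-1, antioxidant response, hypoxia response and TATA letters were not in these windows, and they occurred in 1.59%, 4.05%, 10.1%, 16.6% and 12.9% of all promoters. A match is a string of letters and not a site that was shown to be bound.

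The table gave a raw count, a normalized count and an FPKM (fragments mapped to a gene, scaled to its length and to the library's depth) for each library. Summed raw counts were 4329218 to 5271521 per ARVs library and 4871069 to 5871352 per DMSO library, which was 25% to 26.6% of the library totals that the FPKM values imply. Raw counts were scaled by TMM, a factor per library that takes most genes as unchanged, which a table of called genes does not meet, and fitted with edgeR over the 1751 genes that passed its filter on low counts, and all 3 genes passed that filter. DMSO replicate 2 differed most from its group: comparing its counts with those of either other DMSO library gave 29.3 and 32 for chi-square over degrees of freedom, where the remaining DMSO pair gave 5.54 and pairs of ARVs libraries 4.84 to 6.44. The sum of 6 hypoxia inducible genes of a list of 17 was 29690 to 32990 TMM-normalized counts in the ARVs libraries, 33100 in that DMSO library and 52460 and 53970 in the remaining ones. The fold changes of the members are therefore also given without it. Of 18 cardiomyocyte markers, 9 were in the table, with summed levels of 464900 to 492100 TMM-normalized counts with ARVs and 470400 to 530600 with DMSO. Of these 9, 4 were higher with ARVs, 2 were lower and 3 did not pass, where 39.9% of all genes tested were called higher and 50.4% lower. Of the cardiac myosin heavy chains, Myh7 was higher, at 152% of its DMSO level, and Myh6 lower, at 58.2% of its own. Together they made up most of the summed level of these markers, so opposite changes offset each other in it.

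Grem1 had 309, 305 and 292 raw counts in ARVs replicates 1, 2 and 3, against 1341, 832 and 1016 in DMSO replicates 1, 2 and 3. The FPKM of Grem1 was 4.32, 3.80 and 4.42 with ARVs and 15.9, 10.8 and 14.6 with DMSO. Replicate 2 was the lowest library of each group in FPKM, and the groups did not overlap. Scaled by TMM, Grem1 averaged 320.3 ± 26.8 counts with ARVs and 1008 ± 202 counts with DMSO (SD, n = 3 each), which on the log2 scale is a fold change of -1.66 (standard error, SE, 0.15). DMSO replicate 2 had 70% of the mean Grem1 level of the other DMSO libraries and still 2.31 times that of the highest ARVs library. Without DMSO replicate 2 the log2 fold change of Grem1 was -1.76 (SE 0.09), and without DMSO replicate 1, the highest library, it was -1.53 (SE 0.14). Of 1751 genes, 18 had a more negative log2 fold change than Grem1.

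Inha had 656, 663 and 627 raw counts in ARVs replicates 1, 2 and 3, against 1660, 1407 and 1355 in DMSO replicates 1, 2 and 3. The FPKM of Inha was 24.4, 22.0 and 25.3 with ARVs and 52.5, 48.8 and 51.8 with DMSO. The groups were far apart, and replicate 2 was the lowest library of each group in FPKM. After TMM scaling, Inha averaged 688 ± 51.8 counts with ARVs and 1401 ± 66.5 counts with DMSO (SD, n = 3 each), with a log2 fold change of -1.03 (SE 0.07), and of -1.02 without DMSO replicate 2. The lowest DMSO library of Inha, replicate 2, was 1.82 times the highest ARVs library. Inha was the most highly expressed of the 3 per length, with an FPKM above that of 56.2% of listed genes with ARVs and of 73.5% with DMSO.

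Rgma had 737, 845 and 726 raw counts in ARVs replicates 1, 2 and 3, against 1962, 1662 and 1634 in DMSO replicates 1, 2 and 3. The FPKM of Rgma was 14.6, 15.0 and 15.6 with ARVs and 33.1, 30.8 and 33.3 with DMSO. The groups did not overlap, and DMSO replicate 2 was again the lowest of its group. After TMM scaling, Rgma averaged 813 ± 29.4 counts with ARVs and 1667 ± 86.3 counts with DMSO (SD, n = 3 each), with a log2 fold change of -1.04 (SE 0.06), and of -1.03 without DMSO replicate 2. DMSO replicate 2 was 1.85 times the highest ARVs library. Of 1751 genes, 77 had a more negative log2 fold change than Rgma and 82 a more negative one than Inha.

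**Figure D1:**
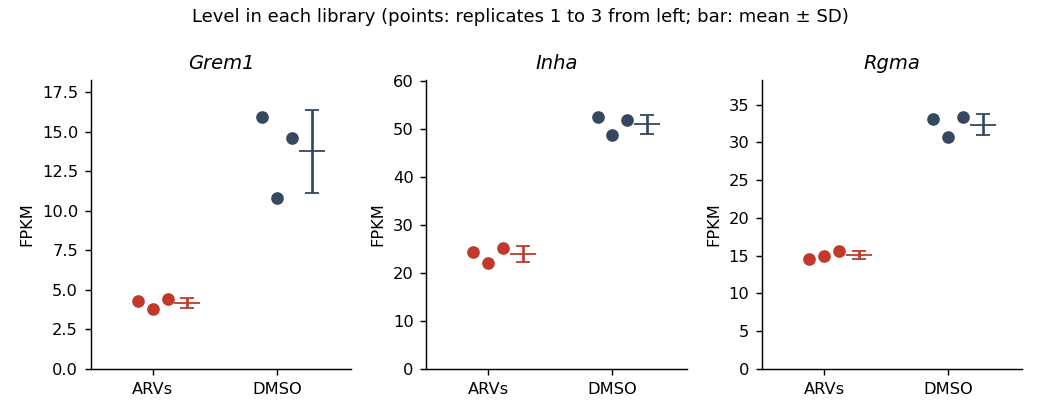
FPKM of Grem1, Inha and Rgma in each library, with the 3 ARVs libraries at the left of each panel and the 3 DMSO libraries at the right. Points are replicates 1 to 3 from left to right, bars are the mean ± SD (n = 3 each), and the groups do not overlap for any of the 3 genes.

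The order of the levels per length was the same under both treatments, with Inha highest, then Rgma, then Grem1. The deposited FPKM of Rgma implies a length of 0.789 times the one listed for it, and at the listed length Rgma would be at 11.9 ± 0.39 FPKM with ARVs and 25.5 ± 1.11 FPKM with DMSO (SD, n = 3 each), which leaves this order as it is. With ARVs the FPKM averaged 23.9 ± 1.68 for Inha, 15.1 ± 0.50 for Rgma and 4.18 ± 0.33 for Grem1 (SD, n = 3). With DMSO it averaged 51.1 ± 1.93 for Inha, 32.4 ± 1.41 for Rgma and 13.8 ± 2.63 for Grem1 (SD, n = 3). The ranges of neighbours in this order did not overlap in either group. The percentage spread between DMSO libraries was wider for Grem1 than for the other members. The coefficient of variation of TMM-normalized counts was 20% for Grem1 in DMSO libraries, where 93.8% of the 676 genes within 2-fold of its mean count had a smaller one and their median was 6.76%. It was 4.75% for Inha and 5.18% for Rgma in DMSO libraries. With ARVs it was 8.36% for Grem1, 7.53% for Inha and 3.62% for Rgma. Of the genes within 2-fold of the mean count of each, 79.6%, 82.8% and 41% had a smaller one with ARVs, so Grem1 and Inha varied more between ARVs libraries than most genes of like count. DMSO replicate 2 was the lowest DMSO library for all 3 genes, and it was so for 53% of the 1052 listed genes with a negative log2 fold change.

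Groups that did not overlap were the rule in this table. All ARVs libraries lay below all DMSO libraries in 854 of 1756 genes (48.6%) and above them in 699 (39.8%), which makes 88.4% without overlap. The 3 members belong to the lower set, and nothing is read from that, since the table was made from genes that differed. The median log2 fold change of all genes tested was -0.16, and 93 of 1751 genes (5.31%) were lower by more than 1 on the log2 scale.

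**Figure D2:**
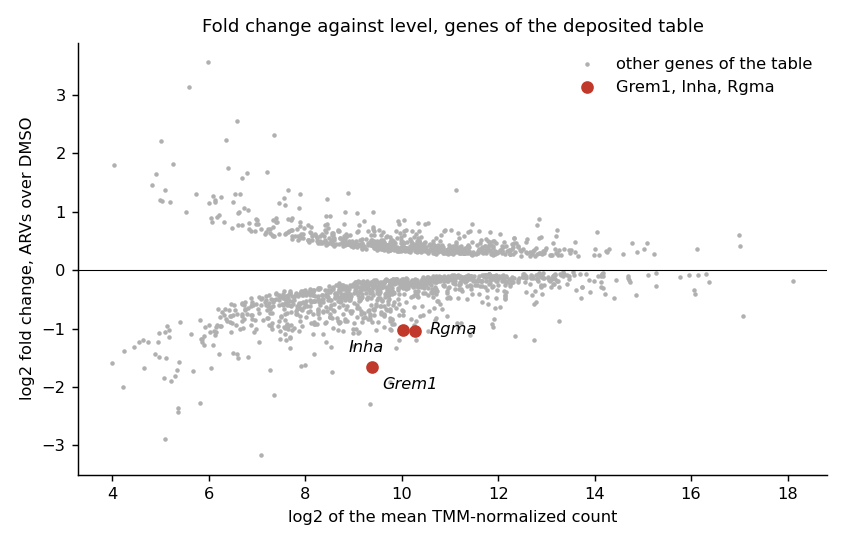
Log2 fold change of ARVs over DMSO against the log2 of the mean TMM-normalized count for the 1751 genes tested, with 1 point per gene and Grem1, Inha and Rgma in red. Grem1 at -1.66 lies near the lower edge of the cloud, and Inha and Rgma lie side by side at -1.03 and -1.04.

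Inha and Rgma had almost the same profile over the 6 libraries, and Grem1 a steeper one. Likeness was measured as the root mean square difference between log2 profiles after each gene's mean was removed, over 6 libraries, for the 1712 genes that averaged 50 or more counts. By this measure Inha was the gene most like Rgma, and only Lox was more like Inha than Rgma was, at a difference between Inha and Rgma of 0.06, against a median of 0.45 between either and all genes. The FPKM ratio of Inha over Rgma was 1.67, 1.47 and 1.62 in ARVs replicates 1, 2 and 3, against 1.59, 1.59 and 1.56 in DMSO replicates 1, 2 and 3. The mean ratio was 1.59 ± 0.10 with ARVs and 1.58 ± 0.02 with DMSO (SD, n = 3 each), and the groups overlapped. Such a ratio within a library does not depend on how libraries are scaled, and its absolute height depends on the lengths used. The ratio of Rgma over Grem1 was 3.62 ± 0.28 with ARVs and 2.40 ± 0.39 with DMSO (SD, n = 3 each), without overlap between the groups.

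Grem1 was most like Abcb9, a peptide transporter of the lysosome, at a difference of 0.08 against a median of 0.764 over all genes, followed by Fam81a (0.17) and Adra1d, the alpha-1D adrenergic receptor (0.18). Abcb9 had 187, 146 and 190 TMM-normalized counts in ARVs replicates 1, 2 and 3, against 666, 474 and 607 in DMSO replicates 1, 2 and 3, and so shared with Grem1 both the fall and the lower level in DMSO replicate 2. Inha was most like Lox, the lysyl oxidase that cross-links collagen and elastin (0.05), and after Rgma came the matrix protein gene Spon2 (0.07). Spon2 and Fam81a were low in count, with only 44 to 52 and 41 to 55 raw counts in the ARVs libraries. Lox averaged 2593 counts with ARVs and 5065 with DMSO. Rgma was followed, after Inha, by Top2a, the topoisomerase of dividing cells (0.06), and Kif11, a motor of the mitotic spindle (0.08). These 6 points per gene share the split into 2 treatments, so genes of like fold change are alike by construction, and another measure gave other names. Pearson's r of log2 counts kept 1 of the 3 names for Grem1, 0 for Inha and 0 for Rgma.

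**Figure D3:**
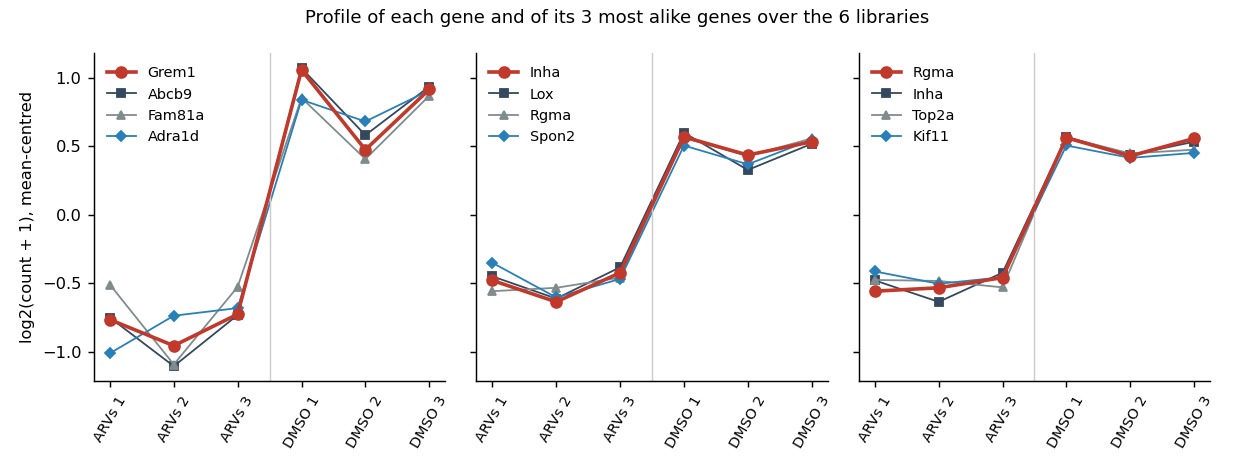
Mean-centred log2(TMM-normalized count + 1) in the 6 libraries, ARVs libraries at the left of the grey line and DMSO libraries at the right, for Grem1, Inha and Rgma (red) and the 3 genes most like each. Lines only join the points of a gene, and the profiles of Inha and Rgma differ by a root mean square of 0.06.

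The other genes of the pathway moved in both directions. Lists of ligands, receptors, co-receptors, antagonists, SMADs and targets held 116 genes beside the 3 members, of which 20 were in the table. The rest were not analysed here. Of the 20, 6 were higher and 11 lower at an adjusted p under 0.05 in edgeR's quasi-likelihood test, and 3 did not pass. Over all 1751 genes tested, 39.9% were called higher and 50.4% lower, or 90.3% in either direction, against 85% of the pathway genes in either direction and 55% lower. These adjusted p-values are no independent evidence, since the genes were listed for a difference between these same libraries. Their median log2 fold change was -0.24, against -0.16 for all genes tested, and their range was -0.61 to 1.18. Each of the 3 members lay below all of them, and nothing is read from that, since the members were picked with the result known. The lower calls move with the scaling. With the authors' own size factors, which shift all log2 fold changes by a median of -0.10, the split was 6 higher and 14 lower, and with median-ratio factors, which shift them by 0.10, it was 6 higher and 8 lower. Over the whole table, 44.2% of called genes were higher with TMM and 56.6% with median-ratio factors.

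Of 25 ligands of the BMP and GDF group, 3 were in the table. Gdf15, a distant member of the family that cells release under stress, was higher, with an FPKM of 52.4, 46.0 and 48.7 in ARVs replicates 1, 2 and 3, against 28.5, 24.0 and 24.5 in DMSO replicates 1, 2 and 3. Its log2 fold change was 1.00 (SE 0.09, adjusted p = 9.2e-05 from edgeR). Gdf6, a BMP of joint and skeletal development, was lower, at 7.36, 7.04 and 6.25 FPKM with ARVs and 10.2, 9.94 and 9.58 FPKM with DMSO (log2 fold change -0.46, SE 0.08, adjusted p = 0.001 from edgeR). Bmp4, a ligand that gremlin 1 binds, was at 6.16, 5.09 and 5.07 FPKM with ARVs and 7.31, 6.34 and 8.78 FPKM with DMSO. The Bmp4 groups came close, and in TMM-normalized counts they overlapped. Its log2 fold change was -0.39 (SE 0.15, adjusted p = 0.038 from edgeR), and the call was lost with median-ratio factors (adjusted p = 0.108) and without ARVs replicate 2 or 3 or DMSO replicate 1 or 3 (adjusted p = 0.0793 to 0.14).

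Inhba, the beta A subunit that forms activin A with itself and inhibin A with the product of Inha, was the only other activin or inhibin subunit in the table out of 4. It was at 25.3, 22.8 and 22.4 FPKM in ARVs replicates 1, 2 and 3, against 17.5, 19.7 and 17.2 FPKM in DMSO replicates 1, 2 and 3. Inhba was thus higher in every ARVs library than in any DMSO library, the opposite of Inha, with a log2 fold change of 0.44 (SE 0.07, adjusted p = 9.3e-04 from edgeR). The FPKM ratio of Inha over Inhba was 0.97, 0.97 and 1.13 with ARVs and 3.01, 2.48 and 3.02 with DMSO. Per length, the alpha transcript was at 1.02 ± 0.09 times the beta A transcript in treated cells and at 2.84 ± 0.31 times in control cells (SD, n = 3 each). Nothing further is read from this ratio, since Inha was picked with its fall known and Inhba was higher.

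Of the activin antagonists in the table, Fst was lower and Fstl3 did not pass. Fst, which encodes follistatin, had 10.4, 8.50 and 8.57 FPKM with ARVs and 15.4, 12 and 14.6 FPKM with DMSO, a log2 fold change of -0.55 (SE 0.14, adjusted p = 0.0065 from edgeR). Fstl3, a follistatin-like antagonist of activin and myostatin, had 23.8 ± 1.75 FPKM with ARVs and 27.6 ± 1.03 FPKM with DMSO (SD, n = 3 each) and did not pass (log2 fold change -0.14, SE 0.07, adjusted p = 0.074 from edgeR). It passed with the authors' size factors (adjusted p = 0.00823) and without ARVs replicate 2 (adjusted p = 0.0327). The FPKM ratio of Fst over Inhba was 0.39 ± 0.02 with ARVs and 0.78 ± 0.15 with DMSO (SD, n = 3 each), without overlap.

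The BMP antagonist genes Nog and Chrd were not analysed here. Tll1, a tolloid-like protease that cuts the BMP antagonist chordin, was lower (log2 fold change -0.61, SE 0.13, adjusted p = 0.0023 from edgeR), at 1.73 ± 0.17 FPKM with ARVs and 2.78 ± 0.27 FPKM with DMSO (SD, n = 3 each). Fstl1, a secreted glycoprotein of the follistatin family, was far more abundant than the members, at 417 ± 10.1 FPKM with ARVs and 505 ± 34.5 FPKM with DMSO (SD, n = 3 each). It was lower by a log2 fold change of -0.21 (SE 0.05, adjusted p = 0.0065 from edgeR) and did not pass with median-ratio factors (adjusted p = 0.183), and without DMSO replicate 2 its log2 fold change was -0.11 (adjusted p = 0.025). The FPKM ratio of Grem1 over Bmp4 was 0.70, 0.75 and 0.87 in ARVs replicates 1, 2 and 3, against 2.18, 1.71 and 1.66 in DMSO replicates 1, 2 and 3. The ratio was thus lower in all treated libraries than in any control library. Nothing is read from that, since Grem1 was picked with its fall known and Bmp4 fell less. Whether Grem1 lay below Bmp4 in treated cells depends on the length taken for Bmp4, whose FPKM implies 0.817 times the listed one, since at listed lengths the ratio was 0.86, 0.92 and 1.07 in ARVs replicates 1, 2 and 3 and averaged 2.27 ± 0.35 with DMSO (SD, n = 3).

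Of 12 type I and type II receptors, only Bmpr1a, a type I receptor of BMPs, was in the table, and it did not pass (log2 fold change -0.11, SE 0.07, adjusted p = 0.16 from edgeR). It passed with the authors' size factors (adjusted p = 0.0183) and without DMSO replicate 3 (log2 fold change -0.18, adjusted p = 0.0124), while without DMSO replicate 2 the adjusted p was 0.996. Neo1, the receptor for Rgma, was higher, at 23.2, 24.9 and 24.7 FPKM with ARVs and 21.7, 20.0 and 19.9 FPKM with DMSO (log2 fold change 0.31, SE 0.06, adjusted p = 0.0015 from edgeR). The FPKM ratio of Rgma over Neo1 was 0.62 ± 0.02 with ARVs and 1.58 ± 0.09 with DMSO (SD, n = 3 each), and the groups did not overlap. At listed lengths this ratio averaged 0.49 ± 0.01 with ARVs and 1.24 ± 0.07 with DMSO (SD, n = 3 each). Nothing is read from the lack of overlap, since Rgma was picked with its fall known and Neo1 was higher. Igsf1, a membrane protein of the immunoglobulin superfamily, was lower (log2 fold change -0.52, SE 0.15, adjusted p = 0.011 from edgeR). The co-receptor genes Rgmb, Eng and Tgfbr3 were not analysed here.

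**Figure D4:**
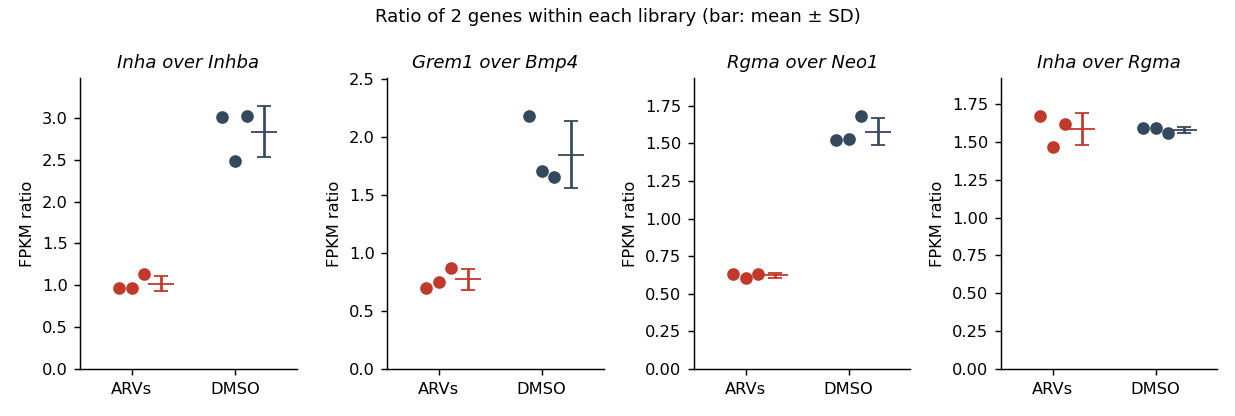
FPKM of 1 gene over that of another within each library, ARVs libraries at the left and DMSO libraries at the right of each panel, with the mean ± SD (n = 3 each). Inha over Inhba, Grem1 over Bmp4 and Rgma over Neo1 are lower in all ARVs libraries, and Inha over Rgma overlaps between the groups. Nothing is read from the lower ratios, since Inha, Grem1 and Rgma were picked with their fall known.

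The 4 listed genes of TGF-beta itself and its latency were all lower, in a table where 50.4% of all genes tested were called lower. Tgfb3, a TGF-beta ligand, had 58.7, 52.1 and 57.3 FPKM with ARVs and 89.3, 65.5 and 87.1 FPKM with DMSO, a log2 fold change of -0.46 (SE 0.12, adjusted p = 0.0063 from edgeR). As in Grem1, DMSO replicate 2 was the lowest control library of Tgfb3. Lrrc32, which anchors latent TGF-beta on the cell surface, and the latent TGF-beta binding protein genes Ltbp1 and Ltbp2 had log2 fold changes of -0.46 (SE 0.11), -0.30 (SE 0.06) and -0.28 (SE 0.07). Ltbp2 did not pass with median-ratio factors (adjusted p = 0.0873 from edgeR), and without DMSO replicate 2 its log2 fold change was -0.16 (adjusted p = 0.0102). Of 19 SMADs and intracellular regulators, only Skil, a corepressor of SMADs, was in the table, at 18.7 ± 0.48 FPKM with ARVs and 22.0 ± 1.56 FPKM with DMSO (SD, n = 3 each). It did not pass (log2 fold change -0.16, SE 0.07, adjusted p = 0.052 from edgeR), and it passed with the authors' size factors (adjusted p = 0.00756) and without DMSO replicate 2 (adjusted p = 0.0197).

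Of 15 genes that BMP or TGF-beta signals are known to induce, 4 were in the table, 3 higher and 1 lower. The shares over all genes tested were 39.9% higher and 50.4% lower. Id1, an inhibitor of differentiation and a direct target of BMP-activated SMADs, had 69.7, 68.7 and 62.2 FPKM with ARVs and 49.5, 56.6 and 58.9 FPKM with DMSO, a log2 fold change of 0.35 (SE 0.08, adjusted p = 0.0029 from edgeR). Hamp, which encodes the iron hormone hepcidin and is induced by BMPs in liver, had 15.5, 18.7 and 17.6 FPKM with ARVs and 6.28, 9.52 and 8.36 FPKM with DMSO. Its log2 fold change of 1.18 (SE 0.19, adjusted p = 8.6e-04 from edgeR) was the largest rise of the 20 pathway genes. Tagln, a contractile protein gene of smooth muscle that TGF-beta induces, was lower by a log2 fold change of -0.48 (SE 0.05, adjusted p = 1.6e-04 from edgeR). Tagln is also a smooth muscle marker, and the targets did not all move in 1 direction.

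**Figure D5:**
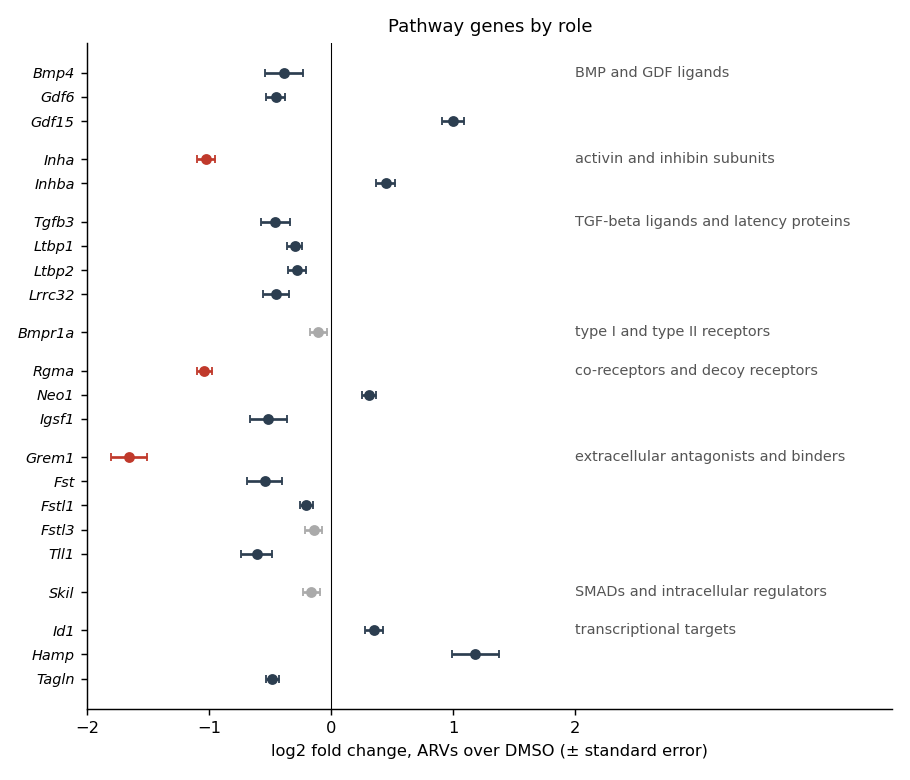
Log2 fold change of ARVs over DMSO with its standard error for 22 pathway genes of the table, by role, with Grem1, Inha and Rgma in red and genes that did not pass edgeR's test in light grey. The 3 members, which were picked with the result known, lie further to the left than the other 19 genes drawn. Gdf15, Inhba, Neo1, Id1 and Hamp lie to the right of 0.

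Markers of other cells that a ventricular culture can hold were measured in the same libraries. The counts of markers below stand beside 50.4% of all genes tested called lower and 39.9% called higher. In bulk RNA, fewer cells of a type and less RNA per cell cannot be told apart. Of 13 smooth muscle and pericyte markers, 8 were in the table, with 6 lower, 0 higher and 2 not passing, and their summed level was 67160 to 76820 TMM-normalized counts with ARVs and 84200 to 106000 with DMSO. The sum, most of which was Acta2, was 0.757 times as high with ARVs as with DMSO. The most reduced of these markers was Rgs5, a pericyte gene, at 44.2% of its DMSO level. It had only 31 to 34 raw counts with ARVs and 82 to 85 with DMSO. Myh11, the smooth muscle myosin heavy chain, was next, at 51.9% of its own. The remaining markers of this list stood at 63.2% (Mylk) to 94.5% (Myocd) of their DMSO levels. Of 15 fibroblast markers, 6 were in the table, with 3 higher and 3 lower, and their sums were 164400 to 166000 with ARVs and 157000 to 162700 with DMSO. Lum and Col3a1 were lower, and Tcf21 and Fn1 were higher. Most of the sum was Col3a1, at 87% of its DMSO level, and Fn1, at 129% of its own, so opposite changes offset each other in it. Of 9 endothelial markers, 2 were in the table, Tek higher and Flt1 lower, at sums of 749 to 829 with ARVs and 624 to 690 with DMSO. For macrophages and leukocytes, 4 of 12 markers were listed, with 3 higher and 1 lower and sums of 1323 to 1408 with ARVs and 925 to 1020 with DMSO. The part of the smooth muscle and pericyte markers in the lower levels of Grem1, Inha and Rgma was not tested. The hypoxia inducible genes also moved with treatment, with 5 of 6 lower. Most of their sum was Ldha. Car9 was at 43.1 to 61.8 TMM-normalized counts in ARVs libraries, at 87.7 in DMSO replicate 2 and at 149.9 and 199.1 in DMSO replicates 1 and 3. Egln3 and Ankrd37 were called lower although their groups overlapped, with DMSO replicate 2 within the range of the ARVs libraries. The part of these genes in the levels of Grem1, Inha and Rgma was not tested.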

How the data were processed

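Total RNA of NRVCs treated with ARVs or DMSO was sequenced, 3 libraries each. Per the submitters' notes and the study's methods, the authors aligned to Rattus norvegicus release 97 with HISAT2 and used StringTie 1.3.3b, and TMM, edgeR and DESeq2 are named for their comparison. The program that counted reads per gene, and the name of the genome build, are not given in the sources used here. The deposited table holds raw counts per gene, a normalized signal (each count divided by the authors' size factor of its library, used here only to recover those factors) and FPKM, for 1756 genes that the authors had called. Their own log2 fold changes, p-values and adjusted p-values are also in the deposited table and were not used.

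The test used edgeR 4.0.16 under R 4.3.3 on the raw counts, by filterByExpr (5 genes removed), TMM over the listed genes, glmQLFit and glmQLFTest, and Benjamini-Hochberg adjustment over 1751 genes at 0.05. Standard errors came from the fold change and the F statistic. To give TMM-normalized counts, each count was divided by its effective library size and multiplied by the mean of those sizes. The test was checked on simulated data in which most genes were unchanged. That check does not cover the scaling of a table of called genes, in which most differed. FPKM ratios within a library used the deposited values, and the lengths behind them were recovered from counts and depth.

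The members, the gene lists and the rule for naming genes were chosen with earlier results of these data known. The rule names the 3 members, the pathway genes in the table, except where a gene is not reported here, and the 3 genes most like each member. Nog, Chrd, Rgmb, Eng and Tgfbr3 are named as not listed. Alternatives were median-ratio factors, the authors' size factors, DESeq2 1.42.0 with the TMM factors, a threshold of 0.01, a minimum of 10 counts in each library, no count filter, the omission of each library, a replicate block, the ratio of mean FPKM, and another measure of likeness. Promoters came from RefSeq (GRCr8), for all 3 members. Protein sequences were not used here.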

Additional observations from a re-analysis of the deposited data

How the results depend on the processing

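The log2 fold changes of Grem1, Inha and Rgma kept their sign under all 13 alternatives each, at -1.76 to -1.53, -1.12 to -0.92 and -1.13 to -0.93. For Rgma, the value moved by more than the spread between libraries with median-ratio factors (-0.93) and with the authors' size factors (-1.13), as all genes shifted with those factors. Leaving out 1 library gave -1.76 to -1.53 for Grem1, -1.07 to -0.97 for Inha and -1.06 to -1.01 for Rgma. Of the other pathway genes, 6 were higher under every alternative run, and 8 to 14 were lower. In the whole table, 536 genes were lower with median-ratio factors and 549 at an adjusted p of 0.01, against 883, while the authors' size factors gave 1052 lower and it was 680 to 832 without 1 library. By Pearson's r, 1 of the 3 genes most like Grem1 was kept, 0 for Inha and 0 for Rgma, and with the authors' size factors all 3 were kept for each.

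Deviations from the group means correlated at 0.0855, 0.276 and 0.1 across genes between libraries of the same replicate number. ARVs replicates 1 and 2 correlated best with their own number and ARVs replicate 3 with DMSO replicate 1 (0.188), and since not every pair was above 0.1 and the labels give no pairing, the numbers were not used as pairs. With the replicate block, the log2 fold changes were -1.64 for Grem1, -1.03 for Inha and -1.04 for Rgma, 11 other pathway genes were lower and 6 higher, and 921 genes of the table were lower and 699 higher. The table holds called genes only, so a gene that did not pass here is not shown to be unchanged.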
